A study of Homo sapiens with 8 samples.

Results

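UHRF1, the DNA methyltransferases, the TET enzymes and their closest partners write, copy and remove DNA methylation, and the expression of these genes was measured here in LNCaP cells after transfection with siGATA2. The group was set by name as 10 genes: UHRF1, DNMT1 and HELLS, which act when methylation is copied after replication; UHRF2, the paralog of UHRF1; DNMT3A and DNMT3B, which methylate unmodified DNA; and TET1, TET2, TET3 and TDG, which take part in its removal. A gene entered when the RefSeq accession that a probe carries belonged to it, and 9 of the 10 genes had such a probe. These 9 genes were read by 20 probes, among 28850 genes and 35514 probes tested. TET3 is not analysed here, because no probe was matched to it.

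LNCaP is a human prostate cancer cell line that was derived from a lymph node metastasis and responds to androgen. Both groups were cultured in RPMI-1640 with fetal bovine serum, and 4 arrays were made of cells given 30 nM siGATA2, a small interfering RNA against the transcription factor GATA2, and 4 of cells given 30 nM siControl, a scrambled negative control, with total RNA taken 72 hours after transfection. The siGATA2 reagent was a single product, all 8 arrays came from 1 cell line on 1 slide, and no label says that the 4 samples of a group came from separate cultures, so that p-values measure the spread between these samples, which may be technical. Values are quantile-normalized log2 signals, on which a difference of 1 is a 2-fold difference, and adjusted p-values come from limma with Benjamini-Hochberg adjustment over all 35514 probes.

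When a cell copies its genome, each new double strand carries methyl groups on the old strand alone. UHRF1 recognises such half-methylated CpG sites, marks histone H3 with ubiquitin and so brings in DNMT1, which methylates the new strand, while HELLS, an SNF2-family remodeler, opens nucleosomes for this reaction. DNMT3A and DNMT3B set new methylation without such a template. TET enzymes oxidise the methyl group step by step, and TDG cuts out the oxidised bases. Transcripts of the copying machinery are known to rise when cells enter S phase, and UHRF1 is known for high expression in many tumours.

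The 3 maintenance genes were the members with the lowest signal relative to siControl, and the promoters of these 3 genes are shown for the sequence they share. E2F factors, which switch on genes of DNA replication, bind words such as TTTCCCGC, TTTGGCGC, TTTCGCGC and TTTGCCGC. These 4 words were searched on both strands of RefSeq windows of 300 bases, from 250 bases before to 50 bases after an annotated start, in assembly GRCh38.p14. Capitals mark the matches, and every sequence runs 5′ to 3′ along the strand of the gene.
UHRF1, chr19:4909251-4909550, plus strand: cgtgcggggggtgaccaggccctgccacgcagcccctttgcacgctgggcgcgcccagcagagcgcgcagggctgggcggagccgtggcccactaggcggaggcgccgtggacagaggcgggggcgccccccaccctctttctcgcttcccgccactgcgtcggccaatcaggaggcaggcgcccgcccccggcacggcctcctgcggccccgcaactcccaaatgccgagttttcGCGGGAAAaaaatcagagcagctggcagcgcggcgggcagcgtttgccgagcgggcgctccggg
UHRF1, chr19:4909894-4910193, plus strand: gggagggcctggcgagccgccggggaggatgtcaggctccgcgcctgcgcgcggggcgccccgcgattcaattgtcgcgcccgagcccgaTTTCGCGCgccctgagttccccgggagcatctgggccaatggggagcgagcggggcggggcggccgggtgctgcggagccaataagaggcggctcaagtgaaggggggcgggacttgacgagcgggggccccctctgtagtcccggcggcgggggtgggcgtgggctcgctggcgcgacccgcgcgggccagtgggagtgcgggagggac
DNMT1, chr19:10194904-10195203, minus strand: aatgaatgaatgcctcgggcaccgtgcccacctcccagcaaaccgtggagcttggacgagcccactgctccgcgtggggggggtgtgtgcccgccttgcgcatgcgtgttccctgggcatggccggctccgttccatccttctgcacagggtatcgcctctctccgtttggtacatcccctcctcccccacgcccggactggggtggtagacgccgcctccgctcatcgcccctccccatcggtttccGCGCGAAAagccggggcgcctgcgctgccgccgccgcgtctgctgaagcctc
HELLS, chr10:94545538-94545837, plus strand: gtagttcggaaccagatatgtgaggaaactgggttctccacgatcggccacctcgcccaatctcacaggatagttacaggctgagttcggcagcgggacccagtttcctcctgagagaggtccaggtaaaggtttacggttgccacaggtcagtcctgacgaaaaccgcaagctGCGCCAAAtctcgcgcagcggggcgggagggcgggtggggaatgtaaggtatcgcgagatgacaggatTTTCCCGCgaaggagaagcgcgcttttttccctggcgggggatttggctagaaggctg

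In the first UHRF1 window the word starts 14 bases before the annotated start, in the DNMT1 window 2 bases before it, and the HELLS window holds a pair of words, 76 and 8 bases before it. The second UHRF1 start has its word 160 bases upstream, and a further UHRF1 window holds none. None of the windows of the 7 other listed genes, TET3 included, holds any of the 4 words, out of 21 windows for the 10 genes. Among all 35116 windows 3.32% hold such a word, and among 27305 genes 3.99% have it in at least 1 window. In the list of S-phase genes described below, 14 of the 27 genes with a window have it. A match is a description of these letters and not a measured binding site.

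Words of other factors were searched in the same way. CCAAT, bound by NF-Y, was found in at least 1 window of 6 members and of 39.7% of all genes, and CACGTG, an E-box, of 4 members and of 8.78% of all genes. The CHR word TTTGAA, found in promoters of late cell cycle genes, was in windows of DNMT3A and TET2 and of 18.2% of all genes. GATA words, searched as A or T, then GATA, then A or G, were present in the window of UHRF2 alone among the members and in windows of 29.1% of all genes. CpG sites numbered 36, 40 and 46 in the UHRF1 windows, 30 in the DNMT1 window and 22 in the HELLS window, with a median of 14 over all windows. High counts were not particular to the maintenance genes, with 18 to 46 in the DNMT3A windows, 33 and 45 in those of TET3, 13 and 35 in those of TET2, 26 for UHRF2 and 22 for TDG, while TET1 had 6 to 11 and DNMT3B 3.

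Before the members are described, the labels and the arrays need to be considered. The GATA2 probe read 12.61, 12.54, 11.57 and 11.40 on siGATA2 arrays 1 to 4 and 11.74, 11.28, 11.10 and 11.29 on siControl arrays 1 to 4. The signal of GATA2 was thus not lower on the arrays labelled siGATA2, with a difference of 0.68 (SE 0.31, limma adjusted p = 0.151), and every direction given here rests on the labels. Between 24331 and 36976 probes an array were well above background, with the fewest on siControl arrays 3 and 1, and the mean log2 signal of the E1A spike-in probes was 11.1 on siControl array 1 against 13.5 to 13.8 on the others. All 10 markers of LNCaP and luminal prostate cells were well above background on all 8 arrays. Of 11 markers of leukocytes, endothelium, fibroblasts, basal cells and hepatocytes 3 were, namely VWF, COL1A1 and PTPRC.

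Expression of the maintenance genes fell on the siGATA2 arrays, that of UHRF1 most. On siGATA2 arrays 1 to 4 the brightest UHRF1 probe, A_23_P208880, gave log2 signals of 8.55, 8.16, 8.26 and 8.43. On siControl arrays 1 to 4 it gave 11.28, 11.24, 11.55 and 11.32. The groups lay far apart, with the siGATA2 values spread over 0.38 and the highest of them 2.70 below the lowest control. The means were 8.35 ± 0.17 and 11.35 ± 0.14 (SD, n = 4), a difference of -3.00 (SE 0.13, limma adjusted p = 1.3e-05) or 8.00-fold. The dimmer probe A_33_P3379454 read between 6.39 and 6.73 on siGATA2 arrays and between 8.27 and 8.66 on siControl arrays, and differed by -2.04 (SE 0.14, limma adjusted p = 4.3e-05). UHRF1 is one of the genes that the study singled out on these same arrays, so its fall is a description and no independent evidence.

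HELLS, the remodeler, read 8.05, 7.66, 7.46 and 7.64 on siGATA2 arrays 1 to 4 and 9.79, 9.86, 9.79 and 9.93 on siControl arrays 1 to 4 with probe A_23_P12816. No value was shared between the groups, and the control arrays were tightly placed (SD 0.067, n = 4). The difference was -2.14 (SE 0.14, limma adjusted p = 4.2e-05), and the other HELLS probe differed by -1.73 (SE 0.11). DNMT1, the maintenance methyltransferase, fell less. Its single probe A_33_P3329187 read 11.89, 11.67, 11.42 and 11.34 on siGATA2 arrays and 12.62, 12.63, 12.94 and 12.59 on siControl arrays. The highest siGATA2 value was still below the lowest control, and the difference was -1.11 (SE 0.15, limma adjusted p = 0.0013) or 2.16-fold.

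**Figure D1:**
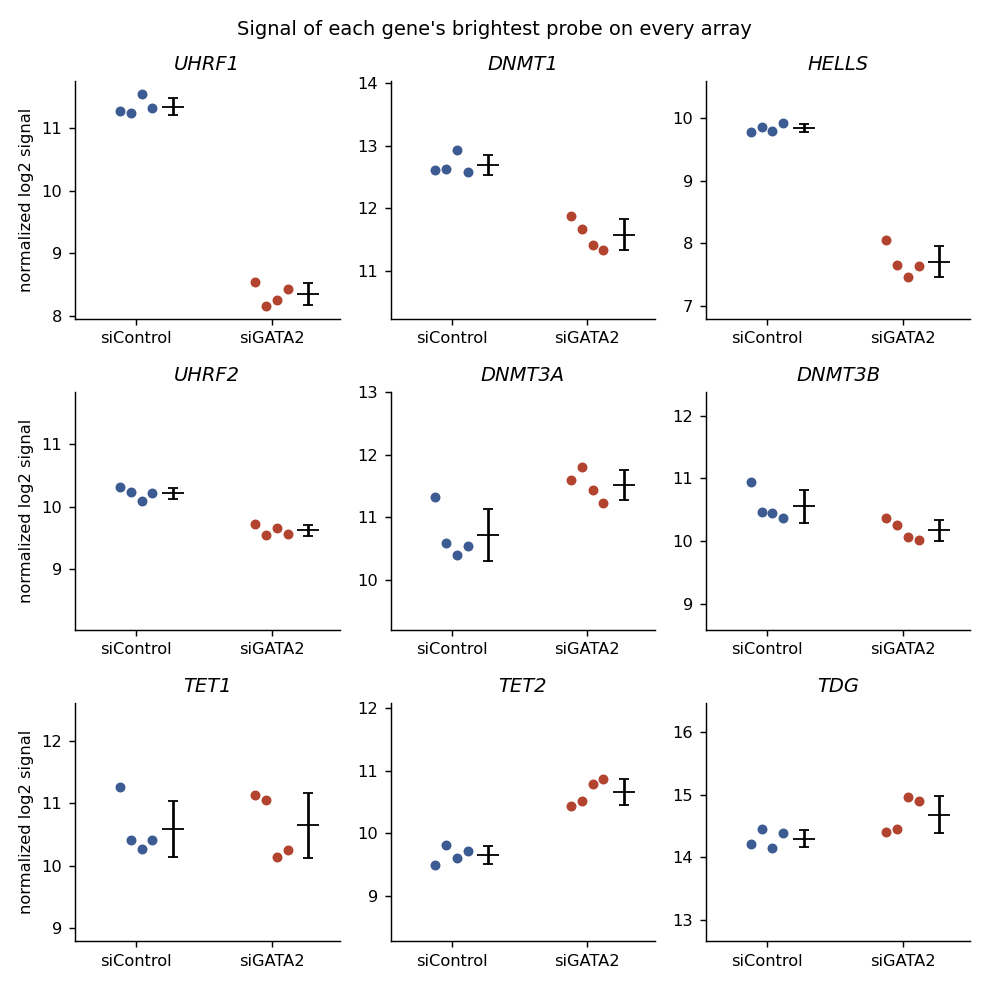
Normalized log2 signal of the brightest probe of 9 genes on 4 siControl (blue) and 4 siGATA2 (red) arrays, in replicate order from left to right; black bars give mean ± SD, and every panel spans the same log2 range. The groups of UHRF1 and HELLS lie furthest apart, with log2 gaps of 2.70 and 1.73 between them. The gaps of DNMT1, TET2 and UHRF2 are 0.70, 0.63 and 0.36, and the groups of DNMT3B touch without overlapping. Those of DNMT3A, TET1 and TDG overlap.

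UHRF2, which binds half-methylated DNA but does not stand in for UHRF1 in copying methylation, moved less, and its probes differed. The brightest probe, A_33_P3279715, read 9.73, 9.55, 9.66 and 9.56 on siGATA2 arrays and 10.31, 10.23, 10.09 and 10.22 on siControl arrays. It fell by 0.59 on the log2 scale (SE 0.10, limma adjusted p = 0.0037) with no overlap. The second probe, A_24_P303815, read 7.86 to 8.04 on siGATA2 arrays and 8.07 to 8.25 on 3 of the siControl arrays, but 7.27 on siControl array 1. Its difference was 0.01 (SE 0.22, limma adjusted p = 0.970), and with the mean of both probes the difference of UHRF2 was -0.29 with an adjusted p of 0.140 from limma.

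Among the de novo enzymes, DNMT3A was higher on the siGATA2 arrays and DNMT3B was not called. DNMT3A gave 11.60, 11.80, 11.44 and 11.23 on siGATA2 arrays and 11.33, 10.59, 10.41 and 10.55 on siControl arrays with its brightest probe, A_33_P3272330. The groups overlapped, since siControl array 1 exceeded siGATA2 array 4. The difference was 0.80 (SE 0.23, limma adjusted p = 0.033), and an exact two-sided permutation test of this probe over the 8 arrays gave p = 0.0571. The other probes did not overlap between the groups. Probe A_23_P154500 read 11.02 to 11.28 on siGATA2 arrays and 10.64 to 10.71 on siControl arrays, a difference of 0.48 (SE 0.099, limma adjusted p = 0.0087). Probe A_23_P420373, which carries the accession of another transcript, read 8.55 to 8.66 and 7.68 to 7.96, a difference of 0.77 (SE 0.10, limma adjusted p = 0.0010).

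DNMT3B was read by the single probe A_23_P28953. Its log2 signals were 10.36, 10.25, 10.06 and 10.01 on siGATA2 arrays and 10.95, 10.47, 10.45 and 10.36 on siControl arrays. The groups touched without overlapping, at 10.361 and 10.362. The difference was -0.39 (SE 0.16, limma adjusted p = 0.116, unadjusted p = 0.0425), and siControl array 1 lay 0.48 above the other controls.

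The demethylating genes did not move as one. TET2, a dioxygenase often mutated in blood cancers, was higher. Its brightest probe, A_23_P350187, gave 10.44, 10.52, 10.79 and 10.87 on siGATA2 arrays and 9.49, 9.81, 9.60 and 9.72 on siControl arrays. Every siGATA2 array exceeded every control, and the difference was 1.00 (SE 0.14, limma adjusted p = 0.0012), just under 2-fold before rounding. Probe A_33_P3238685 differed by 1.17 (SE 0.26, limma adjusted p = 0.012). The remaining TET2 probes, A_33_P3238690 and A_33_P3266719, were not called, at 0.56 (SE 0.20) and 0.13 (SE 0.28), and the latter, which carries another accession, was well above background on 3 of the 4 siControl arrays.

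TET1 showed no called difference in limma with any of its 3 probes, of which the 2 dimmer ones had an unadjusted p under 0.05. The brightest, A_33_P3295550, read 11.14, 11.05, 10.14 and 10.25 on siGATA2 arrays and 11.25, 10.41, 10.27 and 10.41 on siControl arrays. siGATA2 arrays 1 and 2 and siControl array 1 stood above all others, and the difference between the groups was 0.06 (SE 0.31, limma adjusted p = 0.906). The dimmer probes were at -0.42 (SE 0.14, limma adjusted p = 0.062), without overlap, and at -0.56 (SE 0.22, limma adjusted p = 0.099), with overlap. TDG, the glycosylase, read 14.40, 14.45, 14.97 and 14.91 on siGATA2 arrays and 14.21, 14.45, 14.16 and 14.39 on siControl arrays. siGATA2 arrays 3 and 4 stood above all controls while arrays 1 and 2 lay among them. The difference was 0.38 (SE 0.17, limma adjusted p = 0.135), and the second TDG probe differed by 0.51 (SE 0.30, limma adjusted p = 0.246).

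A split of the siGATA2 arrays, 1 and 2 against 3 and 4, was present in the brightest probes of most members. With these probes arrays 1 and 2 were the higher ones for DNMT1, DNMT3A, DNMT3B, TET1 and GATA2 itself and the lower ones for TET2 and TDG. UHRF1 and UHRF2 did not follow the split. For HELLS array 1 alone stood apart, with arrays 2 and 4 at 7.66 and 7.64, and the second HELLS probe did not show the split either. It depended on the probe, since both dimmer TET1 probes were lower on arrays 1 and 2. When the brightest probes of the 3 demethylating genes were averaged on each array relative to their siControl mean, the siGATA2 arrays read 0.48, 0.49, 0.45 and 0.50 and the siControl arrays -0.17 to 0.14. In this average the split of TET1 cancels the opposite split of TET2 and TDG, so its small spread does not show a common rise. Of these 3 genes only TET2 was called. The average of UHRF1, DNMT1 and HELLS read -1.80, -2.13, -2.25 and -2.16 on the siGATA2 arrays, against -0.06 to 0.13 on the siControl arrays. The average of DNMT3A and DNMT3B was 0.34, 0.39, 0.11 and -0.01 on siGATA2 arrays and overlapped with the siControl arrays, which read -0.21 to 0.50 with the highest value on array 1.

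**Figure D2:**
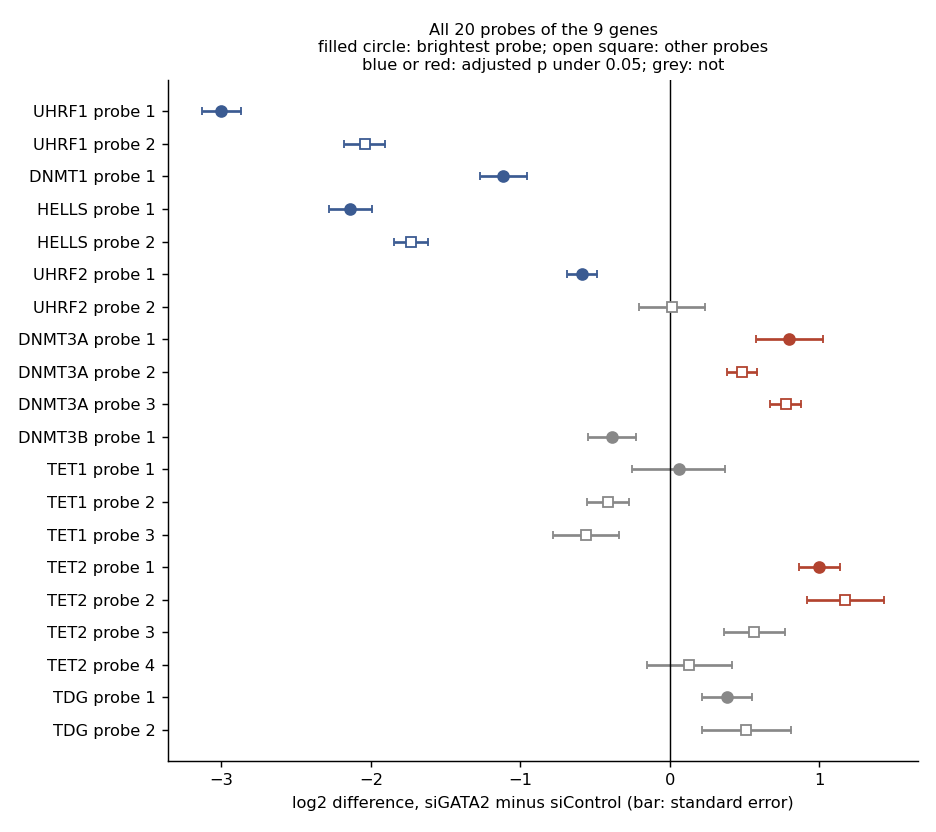
Log2 difference of each of the 20 probes, siGATA2 minus siControl, with its standard error from limma (n = 4 arrays a group); filled circles are the brightest probe of a gene and open squares the others, blue and red have an adjusted p under 0.05. The 5 probes of the 3 maintenance genes lie between -3.00 and -1.11, the 3 DNMT3A probes between 0.48 and 0.80, and the probes of UHRF2, TET1 and TET2 spread around or away from 0.

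Counted over the 9 genes by their brightest probe, 4 were called lower (UHRF1, HELLS, DNMT1 and UHRF2), against 14.2% of all 28850 genes. DNMT3A and TET2 were the 2 called higher, against 12.3% of all genes. At a fold of at least 2, UHRF1, HELLS and DNMT1 were lower, against 7.14% of all genes, and none of the 9 was higher, against 4.56%, with TET2 just below that fold. The groups did not overlap for 6 of the 9 genes, whereas 32.6% of all genes had no overlap. Among the 20 probes 6 were called lower and 5 higher, against 14.5% and 12.5% of all probes. The median difference over the 9 genes was -0.39, beside 0.09 over all genes.

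The signals depend on how the arrays are brought to 1 scale, and 3 of the calls rest on it. With arrays scaled to the E1A spike-in probes, the median of all genes moved to -0.43, the differences of DNMT3A and TET2 were 0.18 and 0.42, that of UHRF2 was -1.16, none of the 3 was called, and TET1 and TDG read -0.55 and -0.32. UHRF1, HELLS and DNMT1 were called lower under this scaling too, at -3.56, -2.66 and -1.76. Without siControl array 1, whose spike-in signal was low, spike-in scaling gave 4 members lower and 2 higher. Row 1 of the slide held siGATA2 arrays 1, 2 and 3 and siControl array 4, and row 2 held siGATA2 array 4 and siControl arrays 1, 2 and 3. Each difference within a row thus rests on 1 array of a group. Within row 1 and row 2 of the slide UHRF1 differed by -3.00 and -2.93, HELLS by -2.20 and -2.18, DNMT1 by -0.93 and -1.39, UHRF2 by -0.57 and -0.66, TET2 by 0.87 and 1.24, and DNMT3A by 1.06 and 0.46. DNMT3B was at -0.14 and -0.61 and TDG at 0.22 and 0.64, whereas TET1, at 0.37 and -0.39, had opposite signs. The arrays with high TET1 signal were siGATA2 arrays 1 and 2, in row 1, and siControl array 1, in row 2. They thus stood on opposite sides of the 2 comparisons. siControl array 1 was also the highest control for DNMT3A and DNMT3B, so their row differences carry the same limit.

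Whether related genes differed from each other in their response was tested within arrays. For each pair, the log2 signal of one gene was subtracted from that of the other on every array, which cancels any factor that scales a whole array. The level of such a difference depends on the probes and has no meaning of its own, but its change between the groups compares the responses. Of 7 pairs listed 5 could be run, and p-values of the exact two-sided permutation test, of which 0.0286 is the smallest possible, were adjusted over these 5.

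UHRF1 minus UHRF2 was -1.18, -1.39, -1.40 and -1.13 on siGATA2 arrays and 0.97 to 1.46 on siControl arrays, a difference of changes of -2.41 (SE 0.13). The paralogs thus differed in response on these arrays, with an exact permutation p of 0.0286, 0.0357 after adjustment. Since the study singled out UHRF1 on these same arrays, this p describes the size of its fall and is no independent evidence. DNMT1 minus DNMT3A shifted by -1.91 (SE 0.27) and DNMT1 minus DNMT3B by -0.73 (SE 0.18), so the maintenance enzyme was lower relative to both de novo enzymes. The second of these calls was lost when any single siGATA2 array was left out (exact permutation test, adjusted p 0.0571 to 0.0714). DNMT3A minus DNMT3B, at 1.24, 1.55, 1.38 and 1.22 on siGATA2 arrays and 0.38, 0.12, -0.05 and 0.19 on siControl arrays, shifted by 1.19 (SE 0.12). Each of these 3 pairs had the same exact permutation p, 0.0286 before and 0.0357 after adjustment. TET1 minus TET2 was 0.70 and 0.53 on siGATA2 arrays 1 and 2 and -0.64 and -0.62 on arrays 3 and 4. The siControl arrays read 1.76, 0.61, 0.67 and 0.69, overlapping with the first of these, and the shift of -0.94 (SE 0.46) gave an exact permutation p of 0.114, 0.114 after adjustment. This result rests on the brightest TET1 probe, which differed by 0.06 between the groups. The dimmer TET1 probes differed by -0.42 and -0.56, and pairs with them were not tested.

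**Figure D3:**
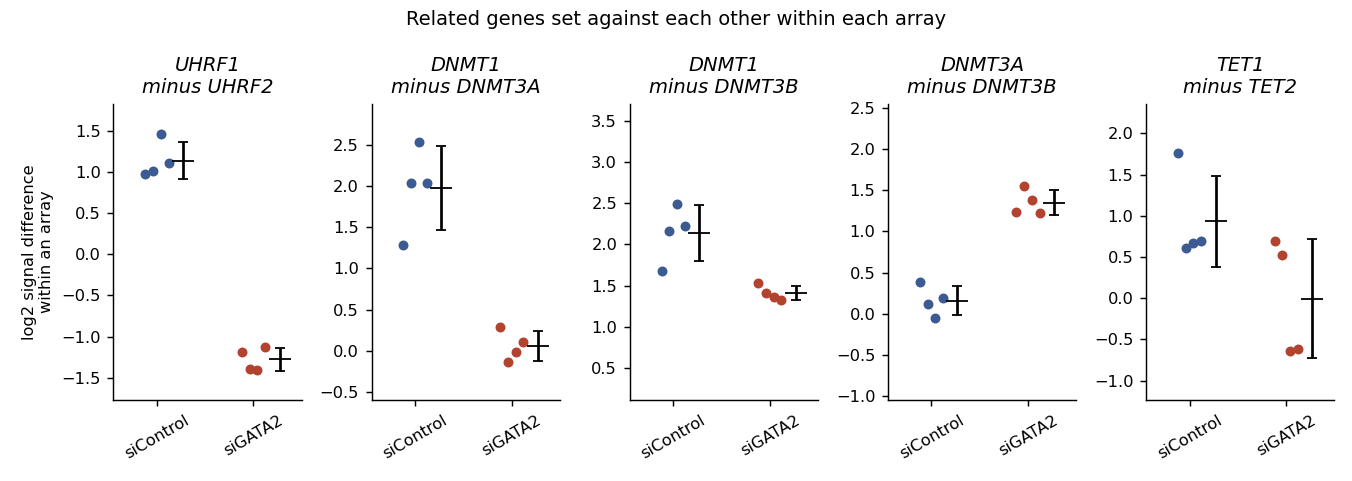
Log2 signal of one gene minus that of a related gene on each of 4 siControl (blue) and 4 siGATA2 (red) arrays, with mean ± SD in black. The groups do not overlap in the first 4 pairs, and in TET1 minus TET2 siGATA2 arrays 3 and 4 lie below 0 while arrays 1 and 2 lie near the controls.

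Genes that share the S-phase timing of the maintenance machinery fell with it. Of 38 genes used to mark S phase, members excluded, 37 were tested. In limma 36 (97.3%) were called lower, against 14.2% of all genes, with a median difference of -1.60. None was called higher, also at an unadjusted p under 0.05 and by the methods' t-test, and with siControl arrays 2 and 4 alone as controls 35 were lower. E2F8, a repressor of the E2F family, differed by -2.84 (SE 0.21), DTL, which directs proteins to degradation during replication, by -2.80 (SE 0.12), and DSCC1, a subunit of a clamp loader, by -2.72 (SE 0.17). RRM2, a subunit of ribonucleotide reductase, was the gene not called, at -0.57 (limma adjusted p = 0.282). The summed linear signal of the 37 genes was 95900 to 105060 on siGATA2 arrays and 203781 to 267257 on siControl arrays. In these bulk samples fewer cells in S phase and less RNA per cell cannot be told apart, and the part of the S-phase genes in the fall of UHRF1, DNMT1 and HELLS was not tested.

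The 5 genes whose log2 signals, centred over the 8 arrays, were most like those of UHRF1 were sought among 17857 genes with a symbol, by the root mean square difference. They were E2F7 (0.143), E2F2 (0.150), DTL (0.150), CA12 (0.170) and RASL11B (0.173). E2F7 is an atypical E2F repressor and E2F2 an activator of the family. CA12 is a carbonic anhydrase of the cell surface. Their own differences ran from -3.23 for RASL11B to -2.79 for E2F2. Since a fall of about the same size is enough for a small distance, the order of the 5 is a description.

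Proteins that load, recruit or read the methylation machinery were mixed. Of 25 partners and readers 23 were tested, with a median difference of 0.07. Of these 7 (30.4%) were lower and 2 (8.70%) higher, against 14.2% and 12.3% of all genes, and 14 were not called. CDCA7, which brings HELLS to chromatin, differed by -2.84 (SE 0.24), and its relative CDCA7L by -1.93 (SE 0.10). PCNA, the sliding clamp that tethers DNMT1 to the replication fork, differed by -1.88 (SE 0.13). PCLAF, a PCNA-binding protein that UHRF1 ubiquitinates, was at -1.79, LIG1, the replicative ligase, at -1.08, QSER1, which protects sites from de novo methylation, at -1.09, and the histone methyltransferase NSD1 at -0.67. The 2 genes called higher were DMAP1, a DNMT1-associated protein, at 0.73 (SE 0.099) and ZBTB4, a reader of methylated DNA, at 0.90 (SE 0.092). The readers MBD1 and MBD2 were not called, nor was USP7, a deubiquitinase that binds DNMT1 and UHRF1.

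Downstream of TET and TDG, 16 of 18 genes of active demethylation and base excision repair were tested, with a median difference of -0.15. Of these 6 (37.5%) were lower and 3 (18.75%) higher, against 14.2% and 12.3% of all genes. UNG, which removes uracil from DNA, differed by -1.38 (SE 0.10), the stress gene GADD45G by -1.01 (SE 0.17) and APEX1, the endonuclease of base excision, by -0.99 (SE 0.21). The genes called higher were GADD45B at 1.34 (SE 0.12), CXXC5, which binds unmethylated CpG, at 0.97 (SE 0.10) and IDH2, a source of the TET cosubstrate, at 0.90 (SE 0.28), whereas IDH1, another such source, was called lower at -0.72 (SE 0.15). With the methods' t-test, and with siControl arrays 2 and 4 alone as controls, 2 genes of this list were higher. Of 13 genes that supply the methyl donor 12 were tested, with a median of -0.75. In limma 7 (58.3%) were lower, against 14.2% of all genes, none was higher, against 12.3%, and 5 were not called. At an unadjusted p under 0.05 limma gave 9 lower and 1 higher, and the methods' t-test gave 7 and 0. MAT1A, which makes S-adenosylmethionine, differed by -1.73 (SE 0.17), and MTHFD1 and SHMT1, enzymes of folate metabolism, by -1.50 (SE 0.13) and -0.97 (SE 0.12). MAT2A, the form of that synthetase used by most cells, was not called, at -0.16 (SE 0.21).

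**Figure D4:**
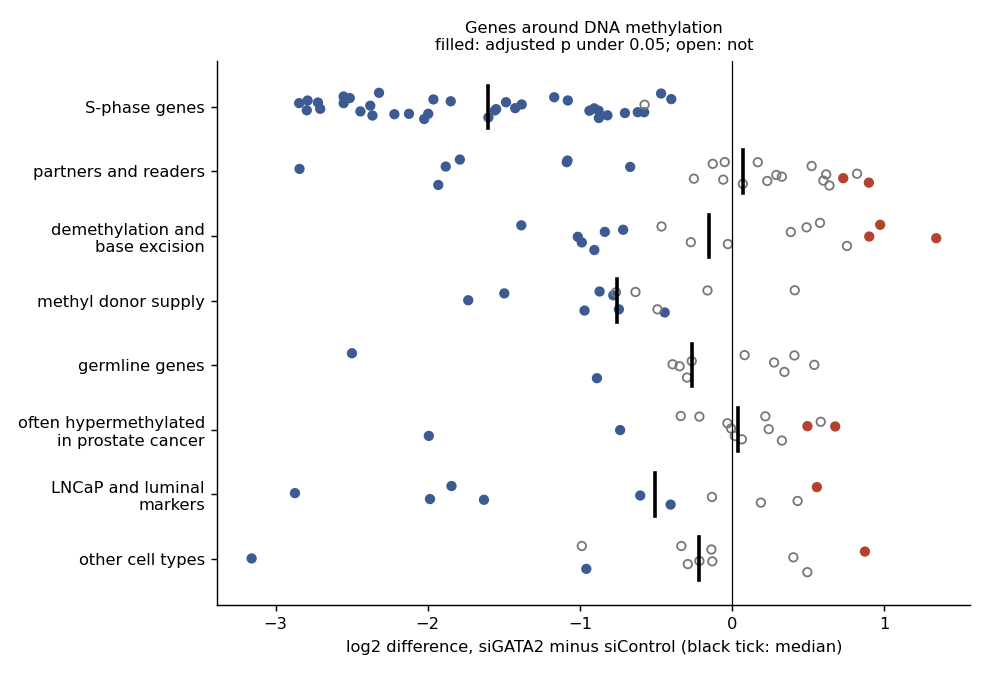
Log2 difference, siGATA2 minus siControl, of every tested gene of 8 lists (4 arrays a group); filled points have an adjusted p under 0.05 in limma, open points do not, black ticks are medians, and points are spread vertically for visibility. S-phase genes lie below 0 throughout, with a median of -1.60, whereas the partners and readers and the genes often hypermethylated in prostate cancer have medians of 0.07 and 0.04.

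Genes that are commonly silenced by DNA methylation were read in 2 lists, beside all genes, of which 14.2% were lower and 12.3% higher. Of 15 germline genes that methylation keeps silent in somatic cells 11 were tested, 2 (18.2%) were lower and none was higher in limma, also at an unadjusted p under 0.05 and by the methods' t-test, with a median of -0.27, and 5 of the 11 were well above background on all 8 arrays. Some were thus not silent in these cells, with mean siControl log2 signals of 14.16 for MAGEA1, 12.57 for MAGEA4 and 10.37 for CTAG2. Those called lower were ASZ1 at -2.50 (SE 0.16) and CTAG2 at -0.89 (SE 0.14). Of 18 genes often hypermethylated in prostate cancer 14 were tested, of which 2 were lower, 2 higher and 10 not called, with a median of 0.04, or 14.3% in either direction. MT1G, a metallothionein, differed by -1.99 (SE 0.59) and the repressor HIC1 by -0.74 (SE 0.20), while AOX1 was at 0.68 (SE 0.18) and TNFRSF10C, a decoy receptor, at 0.50 (SE 0.13). GSTP1, the gene whose promoter is methylated in most prostate cancers, was at 0.22 (SE 0.20, limma adjusted p = 0.460) and well above background on 3 of the 4 siControl arrays. DNA methylation itself was not measured.

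Markers of the line also moved. Of the 10 LNCaP and luminal markers 6 (60%) were lower and 1 (10%) was higher, against 14.2% and 12.3% of all genes, with a median of -0.50. With siControl arrays 2 and 4 alone as controls, however, 3 were lower and none higher. The summed linear signal of the 10 markers was 340396 to 521156 on siGATA2 arrays and 511127 to 617902 on siControl arrays. Among those lower were SLC45A3 at -2.87 (SE 0.28) and KLK2 at -1.84 (SE 0.32), and KRT8, a luminal keratin, was higher at 0.56 (SE 0.15). Of the 11 markers of other cell types 2 were lower, ALB and VWF, 1 was higher, PTPRC at 0.87 (SE 0.12), and 8 were not called. These shares, 18.2% lower and 9.09% higher, were near those of all genes. The summed linear signal of the 11 markers was 1565 to 1998 on siGATA2 arrays and 1959 to 2280 on siControl arrays. VWF differed by -0.96 (SE 0.14), and ALB was not well above background on all arrays of either group. The part of these markers in the results on the methylation genes was not tested.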

How the data were processed

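Total RNA of LNCaP cells was hybridized to 8 one-colour Agilent arrays, 4 a group, and groups were taken from the labels. The deposited files hold spot intensity written by Agilent Feature Extraction 11.0.1.1 (version from the submitters' processing notes), of which the processed signal was used, and a matrix of normalized log2 values, which was used as an alternative. The array files and the methods name different designs of the array, and the annotation in the files was used.

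After log2 transformation, the spots of a probe without an outlier flag were averaged, and quantile normalization was done with limma 3.58.1 in R 4.3.3. Of 42405 probes, those without annotation and those with a mean log2 signal under 3 were removed, and 35514 were kept. Symbols came from the RefSeq table of GRCh38.p14, used for names only, and 26364 probes matched one. Each gene was read from its brightest probe. Each probe was tested with the lmFit and eBayes functions of limma, and p-values were adjusted after Benjamini and Hochberg over all probes, at a threshold of 0.05. The methods name a t-test, which was run as an alternative. Promoter windows were searched in Python 3.11.15.

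The members, lists and tests were chosen with earlier results of these data known. Named genes are the members, GATA2, up to 3 called genes a direction and list that were well above background throughout at least 1 group, the 5 genes nearest to UHRF1, and genes that identity statements need. Further genes were named after their values were seen: all called partners, and RRM2, MBD1, MBD2, USP7, IDH1, MAT2A, MAGEA1, MAGEA4 and GSTP1. Some genes of the lists are not reported here by name.

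On simulated data of this design, with 200 of 35514 probes changed, 42.0% of changes of 1 and 80.0% of changes of 2 on the log2 scale were recovered, and 6.15% of the calls were false. In the real data 5155 probes were called lower and 4447 higher. The adjusted threshold depends on the share of changed probes, so these recovery rates do not carry over to the comparison reported here. The number of arrays limits the precision.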

Additional observations from a re-analysis of the deposited data

Results flagged for a closer look

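In 3 of 42 groups of 4 values, 1 array lay far from the others by Dixon's test, and chance gives about 1 in 20. For DNMT1, siControl array 3 read 12.94 against 12.59 to 12.63 on the others, a gap of 0.893 of the range. For the second HELLS probe, siControl array 1 read 9.35 against 9.22 on the others, a gap of 0.961. For the brightest TET1 probe, siControl array 1 read 11.25 against 10.27 to 10.41, a gap of 0.851.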

How the results depend on the processing

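Over 22 alternatives the number of members called lower was 3 or 4. The number called higher, 2, was 0 with E1A spike-in scaling, 1 with the methods' t-test, 1 with slide row as a block, and 1 to 2 when single arrays were left out, since DNMT3A was then not called (adjusted p 0.062 to 0.089 in 6 such fits, but called at 1.00 without siControl array 1). UHRF1 ranged from -3.56 to -2.52, HELLS from -2.66 to -1.80, DNMT1 from -1.76 to -1.03 and TET2 from 0.42 to 1.07, and UHRF1, HELLS and DNMT1 were called lower in every alternative. UHRF2 was not called with spike-in scaling (-1.16, adjusted p 0.194) or with the mean of its probes. With 75th percentile scaling the shift of TET1 minus TET2 was -0.97 (exact permutation test, adjusted p 0.0286). Spike-in scaling gives the same value by construction, since both scalings cancel within an array. The shift of TET1 minus TET2 ranged from -1.18 to -0.66 when single arrays were left out, passing the threshold without siGATA2 array 1 (adjusted p 0.0357). That of DNMT1 minus DNMT3B ranged from -0.88 to -0.61 and missed the threshold when any siGATA2 array was left out (adjusted p 0.0571 to 0.0714). With siControl arrays 2 and 4 alone the permutation test cannot reach the threshold. Of all calls 53.4% were lower, but 93.1% with spike-in scaling and 70.7% when siControl array 1 was also left out, a setting chosen after seeing the data. With the replicate number as a block, 4 members were lower and 2 higher as without it. Same-numbered arrays deviated together with correlations of 0.53, -0.31, 0.17 and 0.23, so the numbers do not pair the arrays.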
